A study of Homo sapiens with 2 samples.

Results

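The 53 genes described here encode factors that build ribosomes in the nucleolus, together with RNA polymerase I and proteins that act beside it. They were chosen by name, as a fixed set of symbols, and all 53 were found among the 58302 genes of the deposited table, each in a single row. They were divided by role into 9 genes of small nucleolar ribonucleoproteins (snoRNPs), 18 genes of the small ribosomal subunit, 19 of the large subunit and 7 of RNA polymerase I and its partners. The study sequenced RNA from HL60-EIF2S3 cells in 2 libraries, and each condition has 1. The HL60 line is an established human line of acute myeloid leukemia, and these cells stably carry an EIF2S3 transgene in the Retro-X Tet-Off Advanced system, which doxycycline (DOX) shuts down. The library labelled DOX(-) came from untreated cells, in which the transgene should be on, and the library labelled DOX(+) from cells treated with DOX, in which it should be off. Both libraries therefore share the cell line and the transgene, and differ in DOX itself as well. The sources used here give neither the DOX dose nor the time of exposure, nor whether the line was a single clone.

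Ribosome assembly begins when RNA polymerase I, recruited to the ribosomal DNA by UBTF and RRN3, transcribes a long precursor of the ribosomal RNAs. Box C/D snoRNPs, built on the methyltransferase fibrillarin, and box H/ACA snoRNPs, built on the pseudouridine synthase dyskerin, modify this precursor. The small subunit processome and a series of large subunit particles then fold, cleave and trim it before each subunit leaves for the cytoplasm. In proliferating blood cells and leukemias this pathway is active, and many of its genes are textbook targets of the transcription factor MYC.

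Values are FPKM (fragments scaled by transcript length and by library total), so levels of different genes are compared per length. In each pair of values the library labelled DOX(-) comes first. Log2 ratios are log2(FPKM + 1) in DOX(-) minus the same in DOX(+), and a gene is called higher or lower when it differed at least 1.5-fold on that scale. Since each condition has 1 library, the variation between cultures is unknown, and there is no test of the conditions and no p-value. A 95% counting interval (exact, conditional, Clopper-Pearson) stands beside some plain FPKM ratios. It was computed on the shortest annotated transcript, which gives the fewest fragments and so the widest interval, and it covers counting error only. An interval that includes equal levels does not show that the levels were equal. In bulk RNA, fewer cells that express a gene and less of its RNA per cell cannot be told apart.

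The depths recovered from the values were 16577632 fragments in DOX(-) and 18521235 in DOX(+). EIF2S3, the gene behind the labels, stood at 133 and 126 FPKM, a ratio of 1.05. The counting interval was 0.927 to 1.196 on its shortest transcript and 1.02 to 1.09 on its longest. The large difference that the labels imply was thus not seen in the summed transcripts of the gene. Of 6 promyelocyte markers, CTSG (689 and 569.8 FPKM), ELANE, PRTN3, AZU1 and CD33 were above 8 FPKM in both libraries, while MPO, a defining gene of the lineage, was near 0 (0.274 and 0.469 FPKM). The 6 markers summed to 1348 FPKM in DOX(-) and 1075 FPKM in DOX(+), and 4 of the 5 tested had a log2 ratio above 0. Among markers of other cell types, CD3E, EPCAM, HBB, MS4A1 and PPBP were listed at 0 in both libraries, COL1A1 was at 0.0186 and 0.0458 FPKM, and the endothelial and myeloid gene PECAM1 was at 10.8 and 11.8 FPKM. Mitochondrial transcripts made up 22.5% of the summed FPKM in DOX(-) and 27.7% in DOX(+). The part that these differences play in the results below was not tested, apart from the scaling without mitochondrial genes.

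All 53 genes were expressed above 1 FPKM in both libraries, and most were at nearly the same level in both. None was called higher in DOX(-), 3 were called lower, and 50 lay within 1.5-fold. The 3 lower genes were the large subunit factors NIP7 and RRS1 and the small subunit factor UTP14A. They make up 5.66% of the set, close to the 4.06% of all 11525 tested genes (1 FPKM or more in either library) that were called lower, while 3.11% of all tested genes were called higher. Among the 5128 protein-coding genes that reached 5 FPKM, a background nearer to the levels of this set, 2.98% were called lower and 2.44% higher.

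Small differences leaned towards DOX(+). Of the 53 genes, 35 (66.0%) had a log2 ratio below 0, against 53.4% of all tested genes and 52.4% of the protein-coding genes of 5 FPKM or more. The median log2 ratio was -0.10, against -0.02 over all tested genes. By group the medians were -0.14 for the small subunit (12 of 18 below 0), -0.10 for the large subunit (13 of 19), -0.15 for RNA polymerase I and its partners (5 of 7) and -0.0037 for the snoRNP genes (5 of 9). The sign of the snoRNP median turned under 3 scalings of the libraries. The counting interval lay wholly below equal levels for 15 genes (28.3%) and wholly above for 4 (7.55%). Over all tested genes with an annotated length these shares were 8.52% and 7.6%, and over the protein-coding genes of 5 FPKM or more 11.5% and 10.1%. On the longest annotated transcripts, which give more fragments, 26 of the 53 intervals lay below equal levels and 8 above. The shares over all tested genes were not computed on the longest transcripts, so these counts cannot be set against the shares above.

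When FPKM were divided by the total without mitochondrial genes, the median of the 53 genes was -0.16, against -0.08 for all tested genes. NOP58 was then called lower as well, which made 4 lower genes. Together the 53 genes took 0.793% of the FPKM outside the mitochondrial genome in DOX(-) and 0.893% in DOX(+). The 128 other pathway genes described below took 0.827% and 0.920%. Leaving out the mitochondrial genes shifts the log2 ratio of every gene by -0.07 (without the added 1), so the share of an unchanged gene also rises in DOX(+). The summed FPKM of the 53 were 1732 and 1856.

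**Figure D1:**
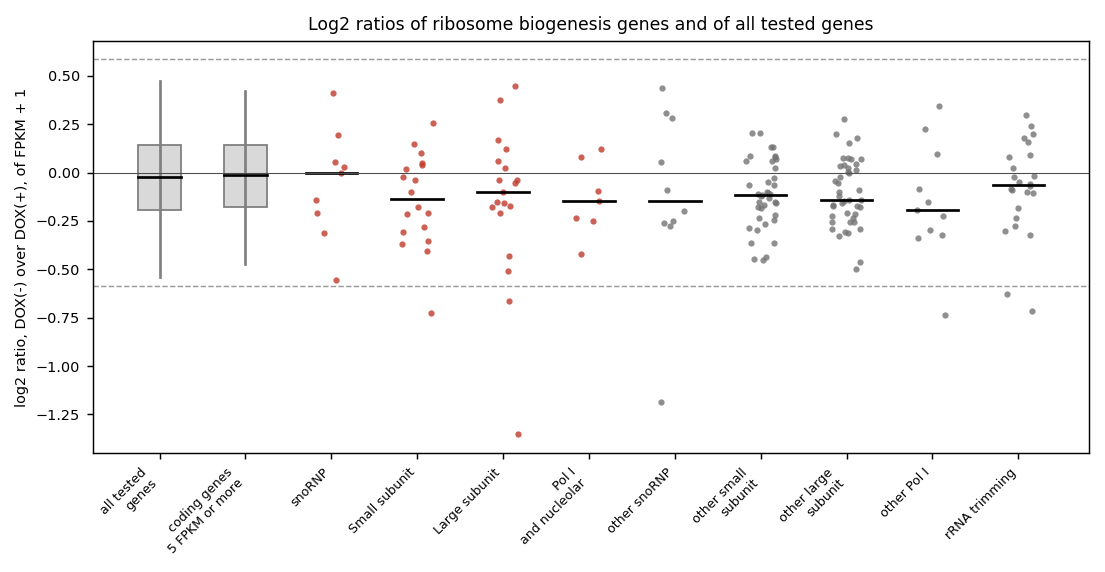
Log2 ratio of FPKM + 1, DOX(-) over DOX(+), for the 4 groups of the 53 genes (red points) and for 5 lists of other genes of the pathway (grey points), with black lines at medians; dashed lines mark 1.5-fold. Grey boxes on the left show the middle 50% of all 11525 tested genes and of 5128 protein-coding genes of 5 FPKM or more, with lines from the percentile 5 to the percentile 95. Most points sit inside the range of all genes, and NIP7 and SNU13 lie lowest at -1.35 and -1.19.

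The order of the levels was kept between the libraries. Across the 53 genes the FPKM had a Spearman correlation of 0.975, a description over genes of the same pair of libraries. NPM1, which encodes the abundant nucleolar chaperone nucleophosmin, was highest in both (149 and 154 FPKM). Next were NCL, which encodes nucleolin (121 and 143 FPKM), and FBL, the fibrillarin gene (117 and 102 FPKM). NIP7 was lowest in DOX(-) and UTP15 in DOX(+). The median level of the set was 19.8 FPKM in DOX(-) and 22.5 FPKM in DOX(+).

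**Figure D2:**
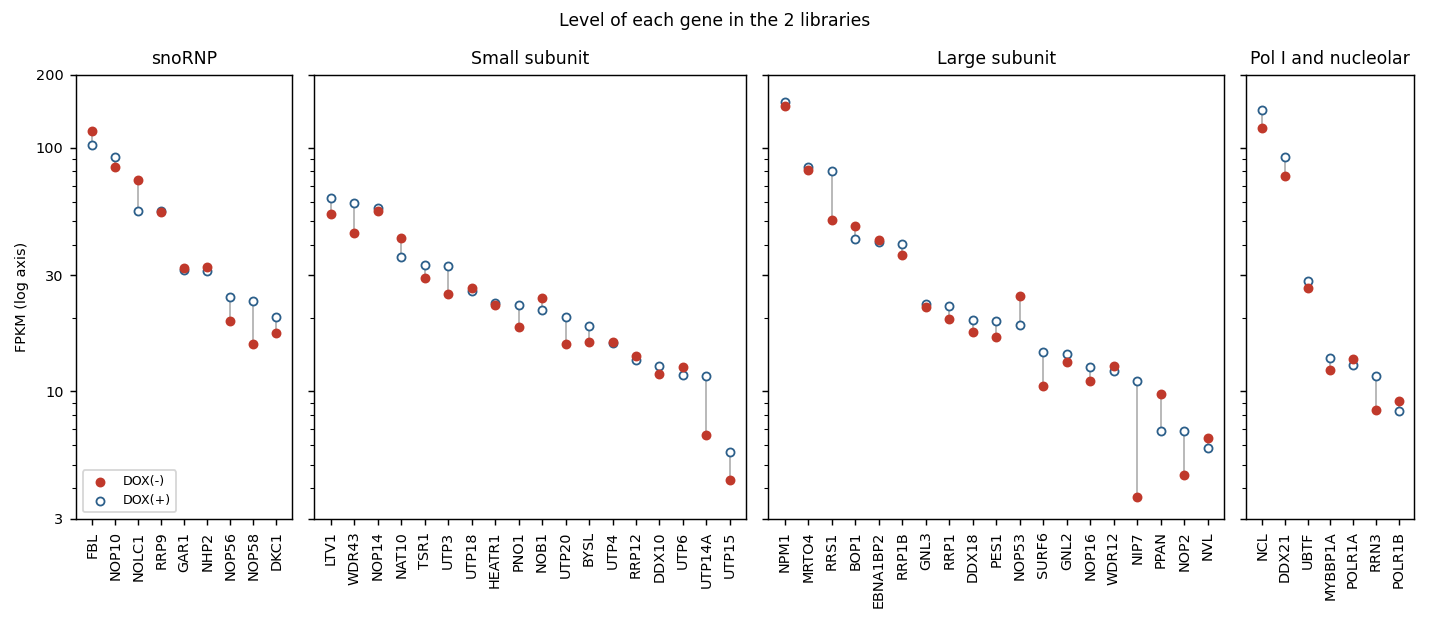
FPKM on a log axis of each of the 53 genes in the library labelled DOX(-) (filled red) and DOX(+) (open blue), by group and ordered by the level in DOX(+). The grey line joins the 2 values of a gene; it is long for NIP7 (3.69 and 10.99 FPKM), UTP14A (6.61 and 11.6 FPKM) and RRS1 (50.4 and 80.3 FPKM) and short for most others.

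NIP7 encodes a factor of large subunit assembly that is needed for processing of the precursor RNA, and it had the largest difference of the set. The gene (chr16:69339430-69343111, GRCh38, plus strand) was at 3.69 and 10.99 FPKM, which is 2.98-fold lower in DOX(-), with a log2 ratio of -1.35. Its values stood for 35 and 116 fragments on the shortest of 8 annotated transcripts and 241 and 801 on the longest, and the interval on the shortest was 0.224 to 0.496. The locus of NIP7 in the table differs from that in GENCODE release 29, from which the lengths came, so these fragments are approximate. Exons of COG8 overlap NIP7 on the opposite strand, and COG8 was at 2.55 and 2.01 FPKM. The listed locus of AC026464.6 (chr16:69326913-69339667), also on the opposite strand, runs into NIP7, and it was at 6.03 and 5.76 FPKM. Its locus too differs from GENCODE release 29, by whose exons it does not overlap NIP7. The sources used here do not say whether strand was used in counting, so fragments of the overlapping exons could be assigned to either gene.

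RRS1 encodes a protein that helps bring the 5S ribonucleoprotein into the growing large subunit. The gene (chr8:66429028-66430733, plus strand) was at 50.4 and 80.3 FPKM, or 1.59-fold lower in DOX(-) with a log2 ratio of -0.66. RRS1 has a single annotated transcript with no exon shared with another listed gene, so its fragments could be recovered without a choice of transcript. They numbered 1425 and 2537, and the interval of the ratio, 0.588 to 0.670, was the narrowest of the 3 lower genes.

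UTP14A encodes a component of the small subunit processome that activates the helicase which releases the U3 snoRNA. It (chrX:129906121-129929761, plus strand) was at 6.61 and 11.6 FPKM, 1.75-fold lower in DOX(-) with a log2 ratio of -0.73 and a counting interval of 0.447 to 0.722. An exon of AL034405.1 overlaps it on the opposite strand. UTP14C, an expressed retrocopy of UTP14A on another chromosome, was at 6.34 and 6.93 FPKM, and its interval (0.818 to 1.02) included equal levels.

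The genes nearest to the 1.5-fold line on its inner side were NOP58 (-0.56) and NOP2 (-0.51) among those below 0, and PPAN (0.45) and NOLC1 (0.41) among those above 0. By plain FPKM, without the added 1, NOP58 and NOP2 were past 1.5-fold, at 1.501-fold and 1.52-fold lower.

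**Figure D3:**
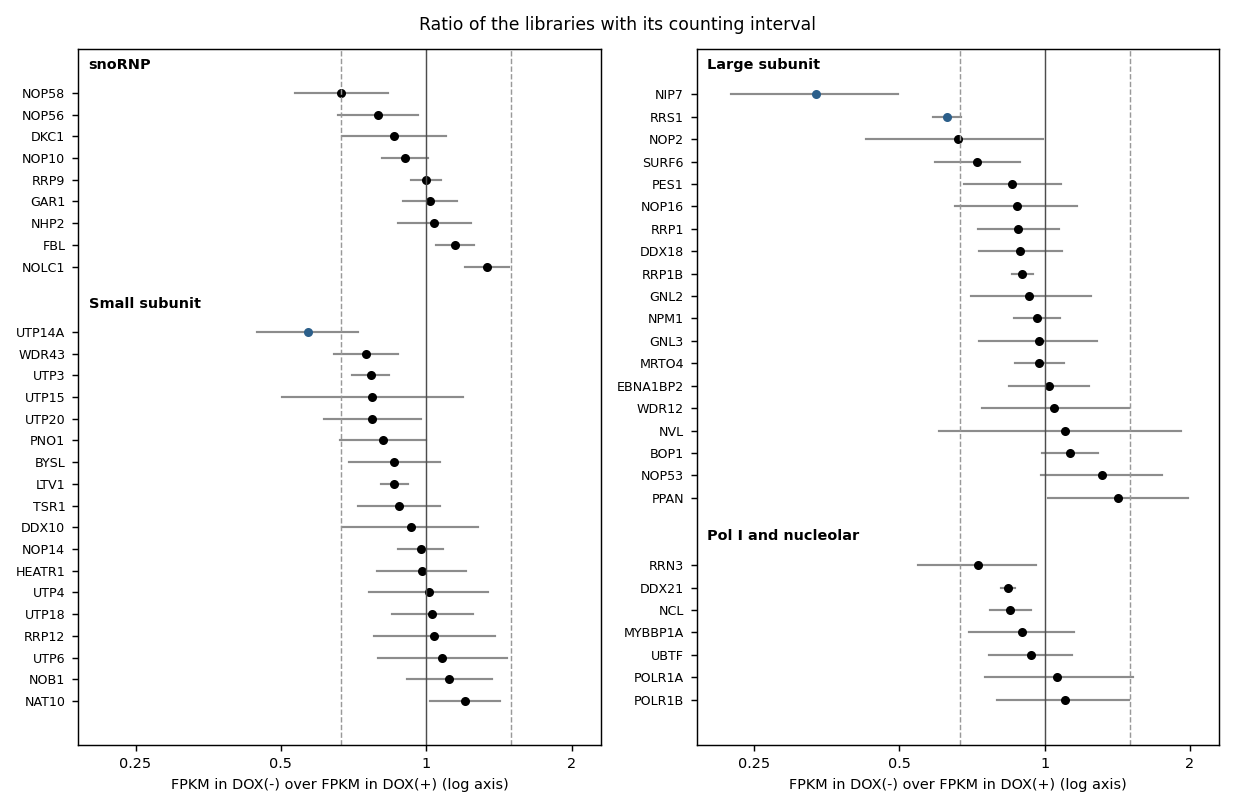
Plain FPKM ratio, DOX(-) over DOX(+), of each of the 53 genes on a log axis, with its 95% counting interval on the shortest annotated transcript (grey line). Blue points are the 3 genes called lower on the FPKM + 1 scale, black points the others, and dashed lines mark 1.5-fold. Intervals are wide for low genes such as NVL (0.603 to 1.92) and narrow for DDX21 (0.810 to 0.867).

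Box C/D snoRNPs guide methylation of ribosomal RNA, and the genes of their core proteins differed in direction. FBL, the methyltransferase, was at 117 and 102 FPKM (log2 ratio 0.19). Of its scaffold partners, NOP56 was at 19.4 and 24.3 FPKM (-0.31) and NOP58 at 15.6 and 23.5 FPKM (-0.56). The counting interval of FBL (1.05 to 1.254) lay above equal levels and those of NOP56 (0.657 to 0.961) and NOP58 (0.534 to 0.832) below, so FBL and its partners lay on opposite sides of equal levels in these libraries. SNU13, the remaining core protein and not among the 53, which binds the kink-turn of the snoRNA and is also a spliceosome protein, was 2.43-fold lower at 8.10 and 19.7 FPKM (-1.19). RRP9, the protein specific to the U3 snoRNP, was nearly equal at 54.7 and 54.8 FPKM, with 1431 and 1603 fragments on its single transcript.

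The box H/ACA genes, whose products convert uridine to pseudouridine, were all within 1.5-fold. On the shortest transcripts their intervals included equal levels. On the longest, those of DKC1 (0.785 to 0.937) and NOP10 (0.823 to 0.998) lay below. NOP10, the smallest core protein, was at 83.3 and 91.9 FPKM (-0.14). NHP2 was at 32.4 and 31.2 FPKM (0.05) and GAR1 at 32.2 and 31.6 FPKM (0.03). DKC1, the synthase itself, was the lowest of the 4 per length at 17.3 and 20.2 FPKM (-0.21). NOLC1, which encodes the snoRNP chaperone Nopp140, was at 73.8 and 55.2 FPKM, a ratio of 1.34 whose counting interval of 1.21 to 1.48 lay above equal levels. It had the largest ratio above 1 in the snoRNP group.

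The UTP-A complex binds the precursor RNA first and is also linked to its transcription. WDR43 was at 44.7 and 59.4 FPKM (-0.40, counting interval 0.645 to 0.875), and UTP15 was at 4.34 and 5.62 FPKM (-0.31). HEATR1 was at 22.6 and 23.0 FPKM (-0.02) and UTP4 at 16.0 and 15.8 FPKM (0.02). On the shortest transcripts only the interval of WDR43 excluded equal levels among these 4. On the longest, that of UTP15 (0.673 to 0.886) lay below as well. Of the UTP-B genes, UTP6 was at 12.6 and 11.7 FPKM (0.10) and UTP18 at 26.6 and 25.9 FPKM (0.04), both with intervals that included equal levels.

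Of the 6 other processome genes, UTP14A was called lower and the others lay within 1.5-fold. UTP3, at 25.1 and 32.7 FPKM (-0.37), has a single transcript, and its 861 and 1254 fragments gave an interval of 0.703 to 0.837. UTP20, a very large helical repeat protein, was at 15.6 and 20.2 FPKM (-0.35, interval 0.614 to 0.975). NOP14 was at 55.1 and 56.6 FPKM (-0.04) and the helicase gene DDX10 at 11.8 and 12.7 FPKM (-0.10). NAT10, the acetyltransferase of small subunit RNA, went the other way at 42.7 and 35.6 FPKM (0.26, interval 1.02 to 1.42).

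Late small subunit factors accompany the particle through export and the final cut of its RNA. LTV1, an export factor, was at 53.6 and 62.4 FPKM (-0.22), and its 1641 and 2134 fragments on a single transcript gave an interval of 0.805 to 0.917. NOB1, the endonuclease of the final cut, was at 24.1 and 21.7 FPKM (0.15), and its partner PNO1 at 18.4 and 22.5 FPKM (-0.28). BYSL (bystin) was at 15.9 and 18.5 FPKM (-0.21), the cytoplasmic maturation factor TSR1 at 29.2 and 33.2 FPKM (-0.18) and RRP12, which acts in export, at 14.0 and 13.5 FPKM (0.05). Of these 6 genes the interval of LTV1 alone excluded equal levels on the shortest transcripts. On the longest, those of PNO1 (0.738 to 0.900), BYSL (0.765 to 0.961) and TSR1 (0.835 to 0.928) also lay below. That of NOB1 (1.001 to 1.24) then lay above.

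In the large subunit, the 3 genes of the PeBoW complex (PES1, BOP1 and WDR12), which is needed to remove an internal spacer of the precursor, had intervals that included equal levels. PES1 was at 16.7 and 19.5 FPKM (-0.21), BOP1 at 47.8 and 42.4 FPKM (0.17) and WDR12 at 12.7 and 12.2 FPKM (0.06). BOP1 was the highest of the 3 per length in both libraries.

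Among early large subunit factors, NOP2, an RNA methyltransferase, was at 4.54 and 6.88 FPKM (-0.51, counting interval 0.426 to 0.989), and SURF6 was at 10.5 and 14.5 FPKM (-0.43, interval 0.592 to 0.887). RRP1B was at 36.2 and 40.3 FPKM (-0.15) and its paralog RRP1 at 19.8 and 22.4 FPKM (-0.17). The interval of RRP1B (0.854 to 0.945) excluded equal levels and that of RRP1 (0.728 to 1.07) included them, although their ratios were close. The shortest transcript of RRP1B held 2784 and 3462 fragments and that of RRP1 193 and 244. NOP16 was at 10.99 and 12.5 FPKM (-0.18), the helicase gene DDX18 at 17.5 and 19.6 FPKM (-0.16) and EBNA1BP2 at 42.0 and 41.2 FPKM (0.03). On the shortest transcripts their intervals included equal levels. On the longest, those of DDX18 (0.834 to 0.951) and RRP1 (0.809 to 0.958) lay below.

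Late large subunit factors all had intervals that included equal levels on the shortest transcripts. Of the nucleolar GTPase genes, GNL2 was at 13.2 and 14.2 FPKM (-0.10) and GNL3 (nucleostemin) at 22.3 and 22.9 FPKM (-0.04). MRTO4, a paralog of the ribosomal stalk protein P0 that holds its place on the particle, was at 81.3 and 83.5 FPKM (-0.04). NVL, an ATPase that releases assembly factors, was at 6.42 and 5.83 FPKM (0.12). NOP53 was at 24.6 and 18.7 FPKM (0.37, interval 0.984 to 1.75). On its longest transcript the interval of NOP53 was 1.22 to 1.41, above equal levels.

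None of the RNA polymerase I group was called at 1.5-fold. The genes of the 2 largest subunits, which form the catalytic core, had 13.6 and 12.9 FPKM (POLR1A, 0.08) and 9.14 and 8.30 FPKM (POLR1B, 0.12). Both had intervals that included equal levels on the shortest transcripts. On its longest transcript the interval of POLR1A (1.01 to 1.12) lay above. RRN3, the factor that makes the polymerase competent to initiate, was at 8.37 and 11.5 FPKM (-0.42, interval 0.545 to 0.960). UBTF, which opens ribosomal chromatin, was at 26.5 and 28.4 FPKM (-0.09).

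The 3 nucleolar proteins that link transcription with processing all had log2 ratios below 0. NCL was at 121 and 143 FPKM (-0.23, interval 0.771 to 0.935), and the helicase gene DDX21 was at 76.8 and 91.6 FPKM (-0.25, interval 0.810 to 0.867). DDX21 had 5997 and 7995 fragments even on its shortest transcript, the most of the set. MYBBP1A was at 12.3 and 13.7 FPKM (-0.15), with an interval that included equal levels on its shortest transcript. On its longest the interval (0.823 to 0.975) lay below.

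Several of these genes share sequence with copies elsewhere, and their values are uncertain where fragments could be assigned to either. The table lists 94 pseudogenes of 22 of the 53 genes, and 18 of them, from 6 parent genes, reached 1 FPKM. NPM1 has 48 listed pseudogenes, of which 10 reached 1 FPKM. NPM1P27 was listed at 562 and 572 FPKM, above NPM1 itself, and NPM1P6 at 187 and 162 FPKM. With these pseudogenes the NPM1 family summed to 1022 and 1030.3 FPKM, of which NPM1 made 14.6% and 14.99%. These are shares of summed FPKM, which are per length, and not of fragments. Both the gene (-0.05) and the sum (-0.01) had log2 ratios near 0.

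For some other genes the summed FPKM moved the log2 ratio more. FPKM are per length, so these sums are not sums of fragments. PPAN, a large subunit factor, shares exons with the readthrough gene PPAN-P2RY11, which joins it to its neighbour P2RY11. PPAN was at 9.80 and 6.90 FPKM (0.45) while PPAN-P2RY11 was at 4.76 and 10.5 FPKM (-0.99). Their sum, 14.6 and 17.4 FPKM, had a log2 ratio of -0.24, so that the sign of PPAN turned when the models were joined. NOP56 with its pseudogene NOP56P1 (10.1 and 8.27 FPKM) summed to 29.4 and 32.6 FPKM (-0.14, against -0.31 alone). NOP56P1 is short (chr6:28783633-28784004), so each of its fragments adds more FPKM than a fragment of NOP56, and the sum overweights it. RRN3 with 4 listed pseudogene entries of 1 FPKM or more summed to 16.2 and 22.1 FPKM, and the log2 ratio hardly moved (-0.42). Of these entries, RRN3P2 and AC009093.9 lie at the same locus, so the sum may count the same copy more than once. UTP14A and UTP14C together were at 13.0 and 18.5 FPKM (-0.49), so the summed pair was within 1.5-fold. NHP2 with NHP2P1 was at 46.1 and 43.4 FPKM (0.08). Copies of MRTO4 and NOB1 added little to the levels of their parents. Exons of 29 of the 53 genes overlap those of another listed gene, 10 of them on the same strand.

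**Figure D4:**
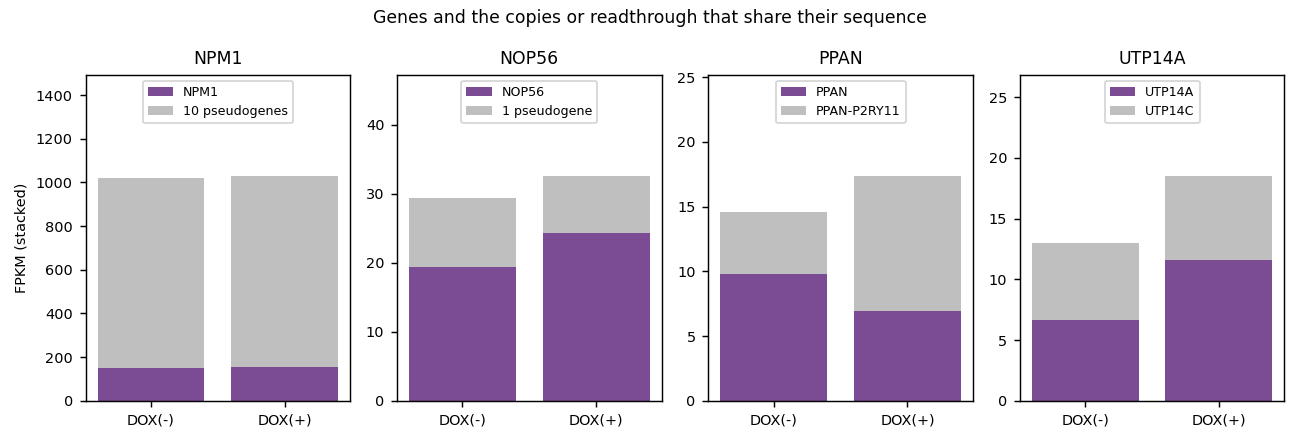
FPKM of 4 genes (purple) stacked with the FPKM of copies or of the readthrough gene that share their sequence (grey), in each library; each axis starts at 0 and has its own scale. For PPAN the purple bar is taller in DOX(-) and the stacked total is taller in DOX(+) (14.6 and 17.4 FPKM). The listed FPKM of NPM1 is a small part of its stacked total, and fragments could be assigned to either the gene or a copy.

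Other genes of the pathway, listed from textbook knowledge, are set beside the 53 here. Of 128 such genes 127 were tested, none was called higher and 4 (3.15%) were called lower, against 3.11% and 4.06% of all tested genes. Of the 127, 86 (67.7%) were below 0, with a median log2 ratio of -0.11. Their counting intervals lay wholly below equal levels for 17 genes (13.4%) and wholly above for 2 (1.57%), smaller shares than in the 53. Their median level in DOX(-) was 9.83 FPKM, against 19.8 FPKM for the 53. Of the 11 tested RNA polymerase I genes, 1 was lower, CD3EAP (now POLR1G), an accessory subunit of the polymerase, at 4.28 and 7.79 FPKM (-0.73, median of the list -0.19). TAF1C, of the promoter selectivity factor, was below 1 FPKM and not tested.

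Of the 10 other snoRNP genes, SNU13 was lower, with the values given above. Of the AAA+ ATPases of the assembly machinery, RUVBL1 was at 20.4 and 16.3 FPKM (0.31) and RUVBL2 at 74.6 and 54.9 FPKM (0.44). None of the 39 other small subunit genes (median -0.11) or of the 43 other large subunit genes (-0.14) differed 1.5-fold on the log2(FPKM + 1) scale. Their largest differences were those of RIOK2, a late small subunit kinase (2.60 and 3.93 FPKM, -0.45), and of NOL9, a polynucleotide kinase (6.85 and 10.1 FPKM, -0.50). Of 24 genes of the RNA exosome, RNase MRP and other trimming enzymes (median -0.06), 2 were lower. These were POP4, a protein subunit of RNase P and RNase MRP (2.94 and 5.47 FPKM, -0.71), and MPHOSPH6, an exosome cofactor (7.14 and 11.5 FPKM, -0.63).

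The table lists 28 snoRNA genes within 9 of the 53 genes, between 68 and 137 nucleotides long. Their values stood for 0 to 8 fragments each, 33 fragments in all in DOX(-) and 41 in DOX(+), and 9 were listed at 0 in DOX(-) and 3 in DOX(+). SNORA51, a box H/ACA RNA within NOP56, was highest with 8 fragments in each library. With so few fragments no difference between the libraries could be read for single snoRNAs, and no ratio is given. Of these genes 15 held the same whole number above 0 in both libraries, a repeat described under the other observations. The cause of that repeat was not tested.

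Promoters were searched for the E-box CACGTG, which MYC binds together with MAX. MYC itself had 29.5 and 2.06 FPKM, a 14.3-fold higher level in DOX(-) (counting interval 8.27 to 27.8). Promoter windows from RefSeq (GRCh38.p14, 250 bases before to 50 after each annotated start) were found for 46 of the 53 genes, as 55 entries. No entry was matched for RRS1, NOLC1, BOP1, NOP58, RRP1B, DDX18 and RRP12. CACGTG, which reads the same on both strands, was present for 23 of the 46 genes. It was present for 13.6% of 7457 tested protein-coding genes and for 22.7% of 110 other pathway genes with an entry. By entry, 24 of 55 windows (43.6%) held it, against 7.26% of all 35116 windows of the same length. The share was 10 of 17 genes for the small subunit, 4 of 7 for the snoRNPs, 7 of 15 for the large subunit and 2 of 7 for RNA polymerase I and its partners. CCGGAAG, the core of sites of ETS factors, searched on both strands, cannot share bases with CACGTG. It was present for 17 of 46 genes (37.0%), against 25.2% of tested protein-coding genes and 43.6% of the 110 other pathway genes.

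Windows of 30 bases on the strand of each gene follow, with the E-box in capitals. They show the site nearest to the start of transcription in some of the genes where it began within 50 bases of the start. The far site of UTP14A, the called gene that holds one, is shown as well.
FBL: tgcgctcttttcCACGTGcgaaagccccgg
NOP10: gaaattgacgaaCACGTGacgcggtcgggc
RRP9: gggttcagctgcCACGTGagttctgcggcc
GAR1: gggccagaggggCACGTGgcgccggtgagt
UTP20: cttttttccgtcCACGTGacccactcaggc
WDR43: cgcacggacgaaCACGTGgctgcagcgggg
NOP14: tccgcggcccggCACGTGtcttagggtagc
NAT10: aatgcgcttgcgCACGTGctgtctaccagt
PNO1: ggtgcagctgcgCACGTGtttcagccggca
MRTO4: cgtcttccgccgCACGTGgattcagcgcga
GNL3: ggcttcagttcaCACGTGgcgccagcggag
PES1: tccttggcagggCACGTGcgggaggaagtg
DDX21: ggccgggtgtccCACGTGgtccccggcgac
MYBBP1A: ggggccggagcaCACGTGtttcgtgtttcg
UTP14A: accttgggcCACGTGgaaaccaggggccag
Positions of the first base of the hexamer are counted from the start site as position 1, with no position 0, and each window is given on GRCh38.p14. The sites in the windows shown are placed first. In the snoRNP and small subunit genes with the hexamer after the start, it was at 7 in FBL (chr19:39846356-39846385, minus strand), 32 in GAR1 (chr4:109815781-109815810, plus strand), 4 in WDR43 (chr2:28894658-28894687, plus strand), 16 in NOP14 (chr4:2963374-2963403, minus strand) and 10 in PNO1 (chr2:68157885-68157914, plus strand). In the large subunit genes and MYBBP1A it was at 15 in MRTO4 (chr1:19251807-19251836, plus strand), 7 in GNL3 (chr3:52686026-52686055, plus strand), 14 in PES1 (chr22:30591880-30591909, minus strand) and 28 in MYBBP1A (chr17:4555340-4555369, minus strand). The hexamer lay shortly before the start in the others, at -11 in NOP10 (chr15:34343130-34343159, minus strand), -5 in RRP9 (chr3:51941892-51941921, minus strand), -10 in UTP20 (chr12:101280083-101280112, plus strand), -15 in NAT10 (chr11:34105602-34105631, plus strand) and -31 in DDX21 (chr10:68956604-68956633, plus strand). Far from the start, it was at -241 in UTP14A (chrX:129905914-129905943, plus strand). The other sites more than 50 bases before the start were at -237 in EBNA1BP2, -224 in SURF6, -170 in NOP10 and -89 in UTP18. NOP10 and UTP18 also held a nearer site in the same window. EBNA1BP2 held its nearer site in the window of another start site, and SURF6 held none. Near the start in small subunit windows not shown, the hexamer was at 29 in BYSL, 29 in LTV1, 5 in UTP18 and -16 in UTP4. In large subunit windows not shown, the near site was at 4 in GNL2, 36 in NOP2 and 43 in EBNA1BP2. Of 26 sites in the 46 genes, 21 (80.8%) began no more than 50 bases before the start or after it, and 15 (57.7%) after it. Over all windows, 36.9% of all 2821 sites began in that stretch and 11.1% after the start.

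**Figure D5:**
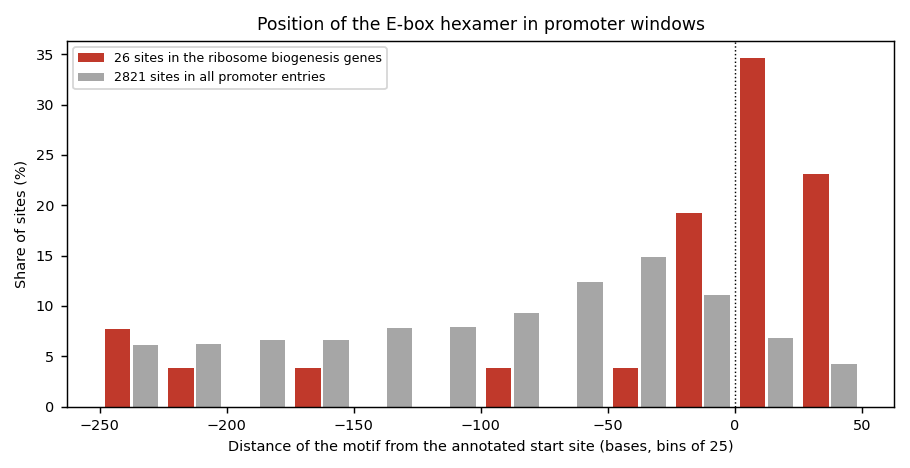
Share of CACGTG sites by distance from the annotated start site in bins of 25 bases, for the 26 sites of the ribosome biogenesis genes (red) and the sites of all promoter windows (grey). The red bars are tallest just after the dotted line at the start site, where 57.7% of the sites begin, against 11.1% of all sites.

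Genes with and without the E-box had overlapping log2 ratios. The 23 genes with the hexamer had a median log2 ratio of -0.14 (17 below 0, 1 called lower), and the 23 without it -0.09 (14 below 0, 1 called lower). Over tested genes the medians were -0.04 for 1029 with the hexamer and -0.02 for 6571 without it. Of the genes called lower, UTP14A held an E-box in its window, NIP7 held none, and RRS1 had no entry. A match of letters is not evidence of binding, and no match says only that these letters are not in the window.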

How the data were processed

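The authors deposited 1 table with 1 FPKM column per library, per the file headers. Tools named in the submitters' processing notes, without their roles, are StringTie 1.3.4b, edgeR, CASAVA 1.8 and HISAT2 2.1.0, and the genome build is given there as hg38 (GRCh38). For annotation release, RNA selection and strand, the sources used here give nothing. The design foresaw FPKM, and no count model was fitted.

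Genes of at least 1 FPKM in either library were tested, with a pseudocount of 1 FPKM. Transcript lengths came from GENCODE release 29, where 56567 of 58302 genes had the same locus. Library totals were recovered from genes with 1 transcript, whose values up to 100 fragments were whole within 0.02 fragment for 99.98% and 99.97%. A floor of 3 fragments equals 0.181 and 0.162 FPKM for a transcript of 1 kb.

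The 53 genes and all lists were chosen with earlier results of these data known. The text names every one of the 53, other listed genes called at 1.5-fold, and EIF2S3 and MYC. The copies, COG8, AC026464.6, RUVBL1, RUVBL2, RIOK2, NOL9 and TAF1C were named after their values were seen. Of the markers of other cell types, 1 is not reported here. EMG1, listed in 2 rows, was taken at its protein-coding row. Alternatives covered pseudocount, filter, size rule, 4 scalings, overlaps and copies. Functions were tested on simulated data, with Python 3.11.15, pandas 2.3.3 and scipy 1.17.1.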

Additional observations from a re-analysis of the deposited data

How the results depend on the processing

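No gene of the set was called higher (0) under pseudocounts of 0.1 and 0.5 FPKM or under 4 scalings. The same held without the filter and with a filter of 5 FPKM. In these settings 3 were called lower, except 4 at the pseudocount of 0.1 FPKM and 4 with the total without mitochondrial genes. Without genes that have pseudogenes of 1 FPKM or more or a readthrough, the counts were 0 higher and 3 lower. None of the 3 lower genes was among those removed, so the count of lower genes could not change there. UTP14A stayed in, and summed with its retrocopy UTP14C it was within 1.5-fold (-0.49). At a size rule of 2-fold 1 gene (NIP7) was lower, and at a looser rule of 0.32 on the log2 scale 10 were lower and 3 higher. The shares of all tested genes under these other size rules were not computed, so these counts have no background beside them. Over all 11525 tested genes the percentiles 5 and 25 of the log2 ratio were -0.54 and -0.19. The percentiles 75 and 95 were 0.15 and 0.47. Among the 24 genes without an exon overlap 1 (RRS1) was lower. The other lower genes, NIP7 and UTP14A, have exons that overlap another listed gene and were left out of this count. The median of -0.10 ranged from -0.16 without mitochondrial genes in the total to -0.07 under trimmed-mean scaling. The snoRNP median of -0.0037 turned to 0.020 under median-of-ratios, 0.024 under trimmed-mean and 0.0059 under upper-quartile scaling; it is the value of RRP9, and the signs of 9 genes (RRP9, HEATR1, UTP4, UTP18, RRP12, GAR1, NHP2, EBNA1BP2 and WDR12) turned under at least 1 scaling. No paired analysis was possible because each condition has 1 library. Single snoRNAs hold few fragments, low genes such as NVL and UTP15 have wide intervals, and the spread between cultures is unknown.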

Other observations

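Very low values of short RNA genes repeated between the libraries. Of 117 snoRNA genes with 1 transcript and 2 fragments over both libraries, 111 (94.9%) had 1 fragment in each, and so had 206 of 209 miRNA genes (98.6%), against 18 of 57 protein-coding genes (31.6%). Among the 28 snoRNA genes within the ribosome biogenesis genes, 15 held the same whole number above 0 in both libraries, 10 of them the value of 1 fragment. The cause was not tested, and where fragments are equal the FPKM ratio is that of the library totals.

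RMRP, the RNA of the RNase MRP that cuts the ribosomal RNA precursor, was at 1.14 and 3.27 FPKM, or 5 and 16 fragments on its single transcript. The gene is 2.86-fold lower in DOX(-) on few fragments, and it was chosen after its value was seen.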
